A study of Homo sapiens with 4 samples.

Results

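The regions described here are the accessible chromatin regions at the 9 genes of the MYC network, namely MYC, MYCN, MYCL, MAX, MXD1, MXI1, MXD3, MXD4 and MNT, in human pancreatic progenitors cultured with or without I-BET151. Peaks of the 4 deposited ATAC-seq lists that shared at least 1 bp were merged, and a merged region was taken as a member where it overlapped the body of a network gene (GENCODE release 44) extended by 20 kb on each side, or by 500 kb for MYC. The rule used no measured value other than the position of the peaks. It found 153 of 164301 merged regions, 93 of them in the MYC window and 60 at the 8 other loci, and the MYC window is given apart because of its width. The labels give MEL1, an established human embryonic stem cell line, as the source of the progenitors of all 4 libraries, and the study's methods name its MEL1 line as the INS GFP/W reporter. All cells were kept in EF6, a DMEM medium with B27, 10 μM of the TGFβ receptor inhibitor 616452, and the growth factors EGF (at 50 ng/ml) and bFGF (at 10 ng/ml). DMSO, the solvent, was added in the control arm, and 1 μM I-BET151, an inhibitor of the BET bromodomain proteins that bind acetylated histones, in the other, in both for 7 days. There were 2 libraries per arm, each from 50000 cells, and the comparison asks how open chromatin at the network genes differed between the arms. No source used here says that replicates came from separate cultures, so p-values measure the spread between these libraries only.

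MYC, MYCN and MYCL are paralogous transcription factors that bind DNA as heterodimers with MAX at the E-box, a short palindrome, and raise the transcription of genes for growth, ribosome production and cell division. MXD1, MXI1, MXD3, MXD4 and MNT compete for MAX, bind the same element and recruit SIN3 repressor complexes, so the balance between both groups sets the output of the network. MYC is also a classic target of BET inhibitors in blood cancers, while MYCN and MYCL have narrower expression in development.

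The sequences on which the comparison turned are shown first, all as the plus strand of hg38, 5′ to 3′, over 201 bases centred on the highest summit except for MXI1. Introns are numbered in the canonical transcript, and the stretches of MYCN, MYCL and MXI1 also overlap exons of other annotated transcripts. In MYCN the region at chr2:15943104-15943791 was called with I-BET151 only, and the capitals in chr2:15943430-15943630 mark a stretch 1 letter off the consensus of CTCF, the protein that anchors chromatin loops.
MYCN, intron 2: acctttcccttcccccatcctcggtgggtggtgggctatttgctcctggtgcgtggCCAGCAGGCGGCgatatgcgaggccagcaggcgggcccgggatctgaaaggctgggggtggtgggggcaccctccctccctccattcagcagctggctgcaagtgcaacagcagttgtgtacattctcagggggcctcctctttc
In MYCL the region at chr1:39898731-39899387 was likewise called with I-BET151 only, and the capitals in chr1:39899005-39899205 mark the 21 bases round the summit, since none of the 8 motifs searched lay in the window.
MYCL, intron 1: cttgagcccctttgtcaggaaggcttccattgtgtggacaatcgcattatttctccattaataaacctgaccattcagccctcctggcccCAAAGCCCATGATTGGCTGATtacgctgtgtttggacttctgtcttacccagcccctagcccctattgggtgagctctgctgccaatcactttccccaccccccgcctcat
Within the MAX window, the region at chr14:65019901-65020408 was the member that moved up in rank, and the capitals in chr14:65020036-65020236 mark a stretch 1 letter off the CTCF consensus.
MAX window: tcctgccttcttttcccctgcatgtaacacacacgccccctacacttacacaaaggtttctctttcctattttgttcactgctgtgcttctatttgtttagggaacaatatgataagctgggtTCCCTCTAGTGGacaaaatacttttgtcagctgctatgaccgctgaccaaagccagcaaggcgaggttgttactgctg
In MXI1 the region at chr10:110279254-110279741 was called with I-BET151 only and held the exact CTCF consensus, in capitals within the 30 bases at chr10:110279552-110279581.
MXI1, intron 4: ggcagttgtGCCCTCTGGTGGagatgactt
The region over the MXD4 TSS at chr4:2262043-2262825 is shown for its motif, and the capitals in chr4:2262336-2262536 mark the E-box CACGTG, the element that the network itself binds.
MXD4, TSS: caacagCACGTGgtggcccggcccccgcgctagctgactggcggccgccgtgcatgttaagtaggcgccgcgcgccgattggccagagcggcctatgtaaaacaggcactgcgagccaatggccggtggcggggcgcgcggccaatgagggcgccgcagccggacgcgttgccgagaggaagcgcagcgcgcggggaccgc

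Each list was called by the authors in its own library. The DMSO lists held 82568 and 38295 peaks from 38.7 and 36.6 M reads, and the I-BET151 lists 84995 and 111324 peaks from 12.5 and 16 M reads, as worked out from the background of each list. Over the 25627 regions called in all 4 lists, the summit pileup per M reads was higher with I-BET151 by a median log2 of 1.57 (replicate 1 pair) and 2.25 (replicate 2 pair), and in 97.4% of these regions the arms did not overlap, with I-BET151 the higher. Levels per M reads are therefore given relative to that shift, which depth, background and treatment cannot be told apart in. Of 10 pancreatic progenitor markers, between 7 and 9 had a called region at the TSS in each library, PTF1A being the one at which none was called, while POU5F1 and NANOG of the stem cell markers, ALB and AFP of the liver markers and INS and GCG of the endocrine markers had none in any list. SOX2 and LIN28A of the stem cell markers and APOA1 of the liver markers were open in all 4, and of the 6 endocrine markers 1 and 0 were open with DMSO and 2 in each I-BET151 library. The mesenchyme markers COL1A1 and TWIST1 were open in all 4 libraries, and COL1A2 in both I-BET151 libraries only. The part of other cells in the results was not tested.

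A region that both I-BET151 lists held and no DMSO list did is termed gained, and the converse lost. At the 8 loci 6 of 60 regions were gained, 1 was lost and 21 were called in all 4 lists. Over all merged regions 17% were gained, 2.37% were lost and 15.6% were called in all 4 lists, so the 10% gained at the 8 loci stood below the share over all regions and the 35% called in every list above it. In the MYC window 11 of 93 regions were gained (11.8%), 1 was lost (1.08%) and 8 were called in all 4 lists (8.60%). For protein-coding genes with the same 500 kb window, a median of 14.1% of regions were gained and 2.53% were lost. Most regions of the MYC window came from a single list, 57 of 93 (61.3%) against 51.8% of all regions, and 32 of these were peaks of I-BET151 replicate 2 alone. A region that was not called has no read count in the lists, which is not the same as a count of 0.

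The counts differed between the same-numbered pairs of libraries. Within the replicate 1 pair, 12 of the 60 regions at the 8 loci were called with I-BET151 only and 11 with DMSO only, where 28.1% and 26.8% of all regions were. Within the replicate 2 pair, 23 were called with I-BET151 only and 2 with DMSO only, against 48.6% and 3.84% of all regions. For the MYC window these counts were 19 and 24 (replicate 1 pair) and 56 and 3 (replicate 2 pair). Which arm had more regions of its own therefore depended on the pair in the MYC window, as the replicate 1 pair had more with DMSO.

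The region over the MYC TSS (chromosome 8, 127735140 to 127736472, hg38) was called in all 4 lists. Its fold enrichment over the local background was 3.13 and 3.49 with DMSO and 5.64 and 5.25 with I-BET151, from 27, 32, 45 and 64 reads at the summit. Both I-BET151 values lay above both DMSO values. Per M reads the level was 0.698 and 0.874 with DMSO and 3.61 and 4.00 with I-BET151. The log2 difference was 2.37 (replicate 1 pair) and 2.19 (replicate 2 pair). The first was 0.80 above the median shift of all shared regions and the second 0.05 below it. By percentile among all regions of each list, the TSS region went from 15.1 and 29.3 with DMSO to 49.6 and 37.9 with I-BET151, without overlap. In limma's fit of within-list ranks the region differed by 0.04 normal-score units (SE 0.42, adjusted p = 0.97), so its place among the shared regions was not shown to differ. Beyond the promoter, no region was gained or lost within 20 kb of the gene. Regions of the MYC window other than the promoter lay outside the gene except for 1 over the 3′ UTR, which I-BET151 replicate 2 alone held at a fold enrichment of 2.9.

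The shared region of the MYC window with the highest fold enrichment in the I-BET151 lists lay 148.9 kb downstream of the TSS in intron 2 of PVT1, a long noncoding RNA gene next to MYC. It had a fold enrichment of 6.46 and 6.61 with DMSO and 12.8 and 13.8 with I-BET151. Upstream, a region over CCAT2, a noncoding RNA gene of the same gene desert, had 5.03, 4.26, 7.38 and 11.5 in the order DMSO 1, DMSO 2, I-BET151 1 and I-BET151 2. At both, the fold enrichments of the groups did not overlap. By percentile within the lists, the PVT1 region went from 91.0 and 88.0 with DMSO to 96.0 and 96.1 with I-BET151. At the CCAT2 region the percentiles overlapped, with 78.8 and 54.6 against 71.8 and 90.2. The region farthest upstream among the shared ones, 470.4 kb from MYC in PCAT1, had 6.85, 7.65, 7.26 and 12.7, and there I-BET151 replicate 1 lay between both DMSO values. None of the 8 shared regions passed the rank fit, in which 3.41% of all 25627 shared regions were called up and 1.96% down.

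**Figure D1:**
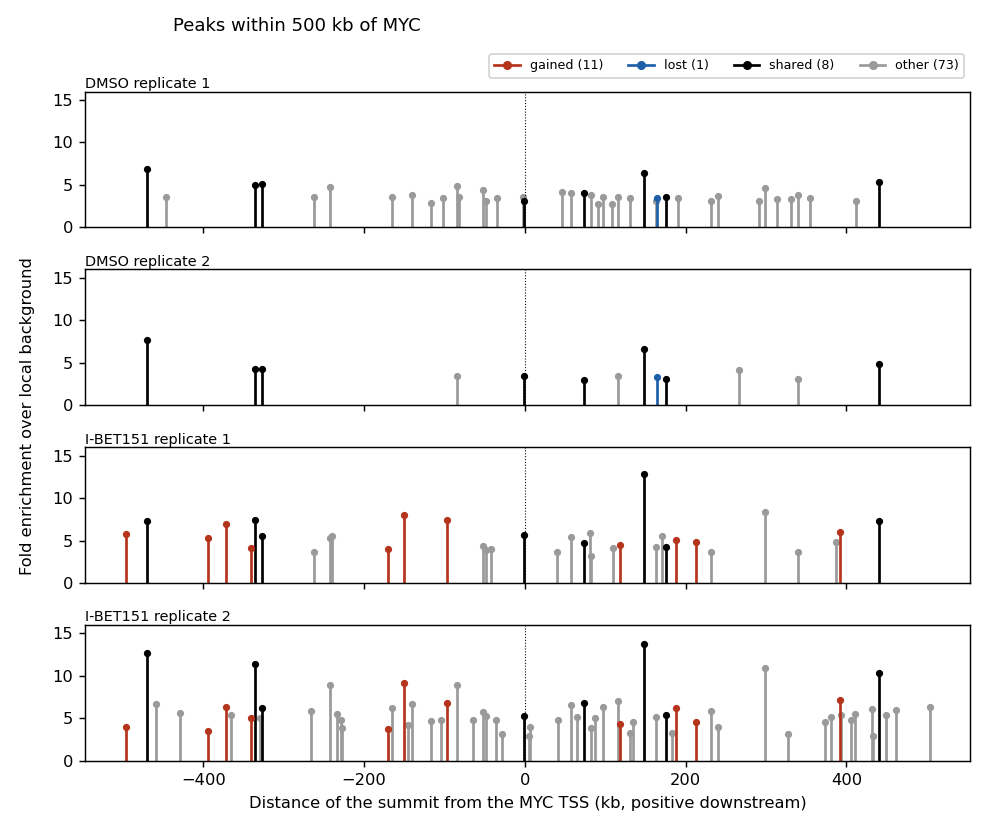
Fold enrichment of each peak within 500 kb of MYC against the distance of its summit from the MYC TSS in kb, with 1 panel per library. Black marks regions called in all 4 lists, red gained, blue lost and grey all other regions, and the tallest line in both I-BET151 panels is the PVT1 region at 12.8 and 13.8.

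The 11 gained regions of the MYC window lay between 96.9 and 496.6 kb from the TSS, 7 upstream and 4 in PVT1 downstream. The one with the highest fold enrichment, 149.9 kb upstream (127586018 to 127586610), reached 7.95 and 9.18 in the I-BET151 lists from 20 and 41 reads and held the FOXA motif TGTTTAC, which pioneer factors of gut endoderm bind. Next came regions 96.9 kb upstream with 7.39 and 6.75, 371.6 kb upstream with 6.93 and 6.33, 391.8 kb downstream with 6.0 and 7.17, and 187.8 kb downstream with 5.07 and 6.17. These 5 all ranked above the 38th percentile of both I-BET151 lists. The lost region lay in intron 3 of PVT1, 164.6 kb downstream, with 3.51 and 3.29 in the DMSO lists from 18 and 17 reads. It stood at the 31.9 and 21.2 percentile of these lists. At a stricter threshold, a −log10 p of at least 10, 4 of the 11 still counted as gained, as did the region over the MYC TSS, and 0 were lost.

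MYCN, on chromosome 2, had the lowest mean percentile over its regions of all 9 loci in both DMSO libraries. The region over its TSS (15939803 to 15940969) was not called in DMSO replicate 1 and had a fold enrichment of 3.17 in DMSO replicate 2, 4.29 in I-BET151 replicate 1 and 3.66 in I-BET151 replicate 2, from 28, 28 and 35 reads. The region also covers the start of MYCNOS, the antisense partner of MYCN, and ATAC-seq reads carry no strand. The gained region in intron 2, whose sequence is shown above, had 5.49 and 4.77 from 37 and 46 reads, both above the TSS region of the same libraries. Its summit stood 2.98 kb from the canonical start and at -27 bp from the start of another annotated MYCN transcript. Besides the TSS region of DMSO replicate 2, the DMSO lists held a single peak at this locus, 25.6 kb downstream, in replicate 1.

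MYCL showed a like arrangement on chromosome 1, with a gained region 2.81 kb downstream of the start. There the I-BET151 lists gave a fold enrichment of 8.61 and 7.34 from 41 and 57 reads, against 5.96 and 6.83 from 27 and 52 reads at the TSS. So in both I-BET151 libraries the intron 1 region was the higher site. The TSS region itself (39901475 to 39902562) was called in all lists, with 3.92 and 3.55 with DMSO, below both I-BET151 values. No gained region lay in the body of MYC. The gained regions of MYCN and MYCL both remained gained at a −log10 p of at least 10, and the local background at them was 6.4 and 5.8 times the genome-wide background at MYCN and 4.2 and 4.6 times at MYCL. The part of that background in the calls was not tested.

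**Figure D2:**
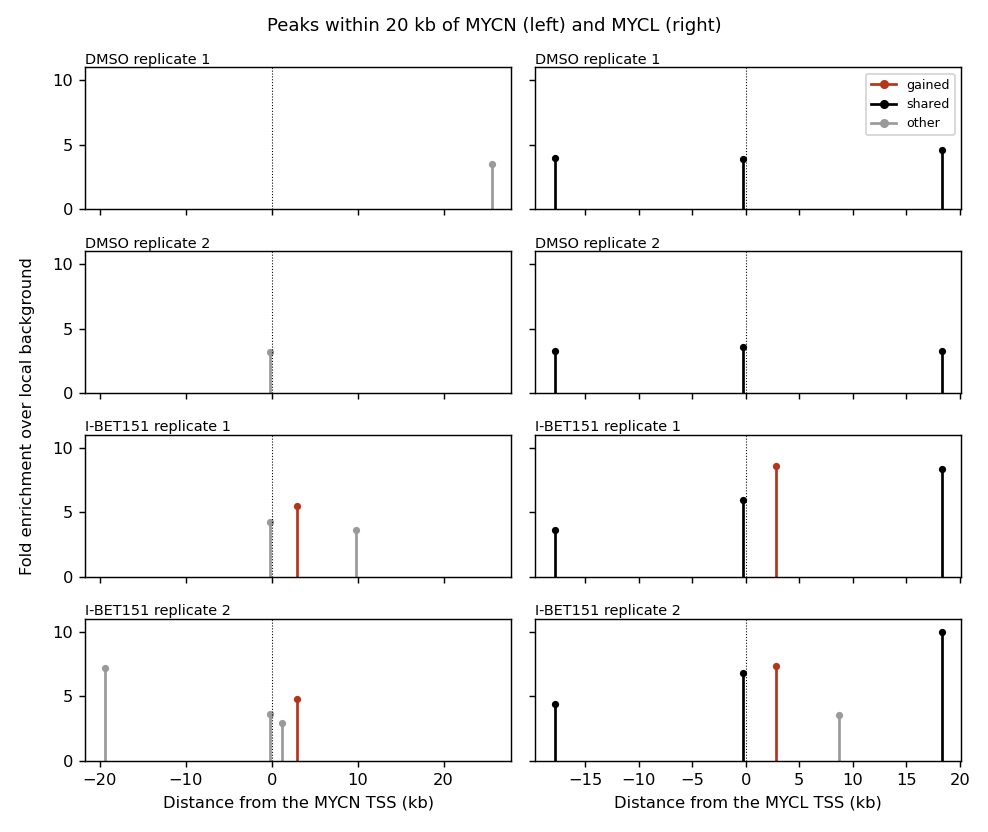
Fold enrichment of each peak at MYCN (left) and MYCL (right) against the distance of its summit from the TSS in kb, positive downstream, with 1 row per library. The red lines at 2.98 kb (MYCN) and 2.81 kb (MYCL) stand in both I-BET151 rows and in neither DMSO row.

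A further MYCL region, 17.8 kb upstream (39919516 to 39919975), differed in the opposite direction once the libraries were centred. It had a fold enrichment of 3.97 and 3.29 with DMSO and 3.64 and 4.37 with I-BET151 from only 18, 15, 6 and 10 reads, and the groups overlapped. Per M reads it was higher with I-BET151 by 0.05 and 0.61 on the log2 scale in the 2 pairs, less than the median of shared regions. When each library was centred on its own median, limma placed it 1.6 log2 units lower with I-BET151 (SE 0.21, adjusted p = 0.023). In this centred fit 4.64% of all shared regions were called lower and 0.679% higher. Of the 29 shared member regions 3 were called lower and 0 higher, and 5 passed an unadjusted p under 0.05, where 26.5% of all shared regions did. The other called members lay in the MYC window, 327.1 kb upstream in CASC8 (127408856 to 127409370, difference -1.01, SE 0.20, adjusted p = 0.033) and 175.3 kb downstream in PVT1 (127911005 to 127912155, difference -0.86, SE 0.20, adjusted p = 0.046, or 0.067 with limma's replicate block). The fold enrichments of the CASC8 region were 5.08 and 4.26 with DMSO and 5.5 and 6.2 with I-BET151. Those of the PVT1 region 175.3 kb downstream were 3.62 and 3.05 with DMSO and 4.23 and 5.37 with I-BET151. At both, the I-BET151 values were thus the higher ones, without overlap. Per M reads both regions were also higher with I-BET151 in both pairs, by less than the median of shared regions. All 3 regions lay away from any protein-coding TSS, as did 1071 of the 1188 regions called lower in all. So did 18 of the 29 shared member regions and 16101 of all 25627 shared regions. Leaving out a library leaves 1 library in an arm, so whether these calls hold without it cannot be told. In limma's fit of ranks, all 3 differences stayed negative with each library left out. They ran from -0.89 to -1.48 normal-score units at the MYCL region, from -0.82 to -1.11 at CASC8 and from -0.09 to -0.55 at PVT1.

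MAX, the shared partner, had one of the strongest promoters of the set. The region over its TSS (chromosome 14, 65102143 to 65103476) had a fold enrichment of 7.58 and 7.08 with DMSO and 11.1 and 12 with I-BET151, from 54, 59, 68 and 145 reads. It stood at the 95.5 and 90.6 percentile of the DMSO lists and at 91.7 and 91.9 of the I-BET151 lists, so its rank was nearly level while its enrichment was higher. The MAX window reaches across the neighbouring genes FNTB and CHURC1-FNTB, because MAX spans 96.5 kb, and 6 of its 13 regions lie in FNTB.

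In intron 4 of FNTB, 82.4 kb from the MAX TSS, lay the 1 member region called in the rank fit. It had a fold enrichment of 6.81 and 6.35 with DMSO and 19.8 and 17.4 with I-BET151, from 31, 31, 54 and 70 reads. The percentile went from 92.8 and 86.2 to 99.96 and 99.3, the highest of any member region in both I-BET151 lists. Limma gave a difference of 1.66 normal-score units (SE 0.42, adjusted p = 0.038). No member region was called lower by rank, and 4 of 29 passed an unadjusted p under 0.05, 1 of them upward, where 24.9% of all shared regions did. The call was lost in limma's fits of ranks by −log10 p (adjusted p = 0.35) and of the centred pileup (0.26). Over all shared regions these fits called 8 and 174 up, against 875 in the main rank fit. The difference was 1.61 without DMSO replicate 1, 1.59 without DMSO replicate 2, 1.07 without I-BET151 replicate 1 and 2.22 without I-BET151 replicate 2. An arm then held 1 library, so whether the call holds without a library cannot be told.

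A shared region over the start of FNTB (64986650 to 64987601) had a fold enrichment of 7.47 and 5.86 with DMSO and 12.3 and 11.3 with I-BET151, without overlap. Its percentiles overlapped, at 95.1 and 82.0 with DMSO and 94.9 and 89.8 with I-BET151. Other regions of the MAX window varied more between libraries. The lost region of the 8 loci lay in FNTB, 47.4 kb from the MAX TSS (65055016 to 65055420), with a fold enrichment of 3.69 and 3.55 from 14 and 15 reads in the DMSO lists. In intron 3 of MAX a shared region (65081387 to 65081939) had 5.86 and 4.20 with DMSO and 6.15 and 13.1 with I-BET151, so only I-BET151 replicate 2 stood well apart. A shared region 54.6 kb from the TSS had 4.78, 3.51, 3.96 and 9.37 in the same order, and I-BET151 replicate 1 lay within the DMSO values.

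Among the repressors, MXD1 had the most accessible promoter of the 9 genes in DMSO. The region over its TSS (chromosome 2, 69914285 to 69915304) had a fold enrichment of 9.60 and 11.4 with DMSO and 12.9 and 13.7 with I-BET151, from 80, 104, 99 and 236 reads. The groups did not overlap, yet the percentile went from 98.8 and 99.2 to 96.2 and 95.9. In limma's rank fit the difference was -0.94 (SE 0.39, adjusted p = 0.15), which did not pass the threshold. The gained region of the MXD1 window lay over the start of SNRNP27, a splicing gene 21.1 kb upstream, with 4.95 and 7.55 from 9 and 18 reads.

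MXI1 has several annotated starts, and its canonical TSS was weakly enriched. The region there (chromosome 10, 110207446 to 110207862) had a fold enrichment of 2.62 in DMSO replicate 1, was not called in DMSO replicate 2, and had 3.82 and 3.86 with I-BET151. A region 3.71 kb further in had 6.08 and 5.81 with DMSO and 9.07 and 9.12 with I-BET151. Another, at -129 bp from an internal start and 18.3 kb into the gene, had 4.59, 3.42, 6.70 and 5.96. Both internal regions were called in all lists and were more enriched than the canonical start in every library that called it. At both, the fold enrichments of the groups did not overlap, but the percentiles within the lists did. These were 88.9 and 81.6 against 83.4 and 78.9 at the first, and 70.4 and 27.1 against 64.6 and 47.6 at the second. The gained region in intron 4, the one with the exact CTCF consensus, was weak, with 5.20 and 4.83 from 9 and 12 reads.

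MXD3 held 2 of the 6 gained regions. One covered the starts of RAB24 and PRELID1 (chromosome 5, 177303183 to 177303903) with a fold enrichment of 4.78 and 4.54, and it contained both an E-box and the ETS motif CCGGAAG. The other lay 14.2 kb upstream of MXD3 (177325778 to 177326596) with 6.31 and 6.95 from 12 and 21 reads. The region over the MXD3 TSS had 5.01 and 4.29 with DMSO and 9.69 and 8.65 with I-BET151, and these values did not overlap. Its percentiles did overlap, at 78.6 and 55.2 with DMSO and 86.4 and 75.8 with I-BET151. In limma's rank fit the difference was 0.13 (SE 0.40, adjusted p = 0.87).

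Neither MXD4 nor MNT had a gained or lost region. The MXD4 TSS region, whose E-box is shown above, had a fold enrichment of 5.26 and 6.79 with DMSO and 12.3 and 15.3 with I-BET151, the largest absolute difference among these promoters, from 79, 102, 85 and 223 reads. The second MXD4 region, over the start of HAUS3 and POLN, had 5.77, 6.07, 13.4 and 12.2. MNT showed the smallest absolute difference of the 7 promoters called in all lists, with 4.03 and 4.18 with DMSO and 5.32 and 5.25 with I-BET151 at the TSS (chromosome 17, 2401030 to 2402114), from 61, 58, 47 and 113 reads. The percentile of this TSS region was lower with I-BET151, at 45.1 and 37.8 against 54.5 and 53.0 with DMSO. In limma's rank fit the difference was -0.85 (SE 0.40, adjusted p = 0.20), which did not pass the threshold. Intron 1 of MNT held 2 further shared regions, at 3.05 to 3.62 with DMSO and 4.61 to 5.68 with I-BET151. The local background at the MNT TSS was 5.0, 4.2, 8.7 and 13.7 times the genome-wide one, the highest of the 9 promoters in both I-BET151 lists.

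Across the 9 genes, 7 TSS regions were called in all 4 lists, where 53.6% of protein-coding genes had such a region. At each of these 7 both I-BET151 fold enrichments were above both DMSO values, as they were at 97.2% of all shared regions within 1 kb of a protein-coding TSS. By read counts per M the 29 shared member regions were higher with I-BET151 in all cases within the replicate 2 pair and in 28 within the replicate 1 pair, which is what the common shift gives. Relative to that shift, 10 were above the median of all shared regions in both pairs and 9 were below it in both, against 35.1% and 35.0% of all shared regions. The 11 shared member regions within 1 kb of a protein-coding TSS had a median centred difference of 0.23 on the log2 scale and the 18 others -0.12, while the same medians over all shared regions were 0.13 and -0.17. Local background also moved with the arm, as the median over the member TSS regions was 3.06 and 2.64 times the genome-wide background with DMSO and 6.48 and 7.5 times with I-BET151. Over all regions near a protein-coding TSS it was 1.84, 1.77, 3.10 and 3.67 times. Its part in the fold enrichments was not tested.

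**Figure D3:**
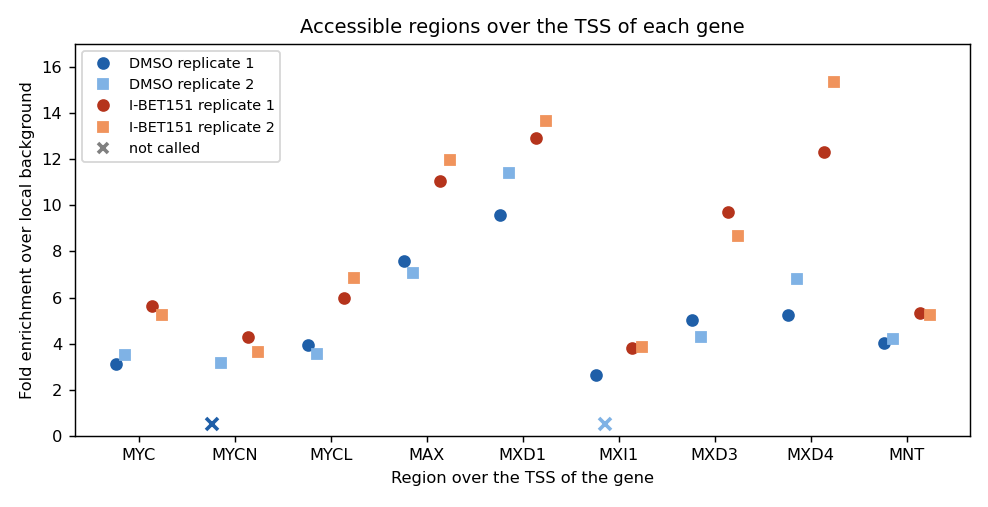
Fold enrichment over the local background at the region over the TSS of each gene, with 1 point per library and crosses near 0 for a region that was not called. In the 7 genes called in all lists both I-BET151 points (red, orange) lie above both DMSO points (blue), from MNT (4.03 and 4.18 against 5.32 and 5.25) to MXD4 (5.26 and 6.79 against 12.3 and 15.3).

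**Figure D4:**
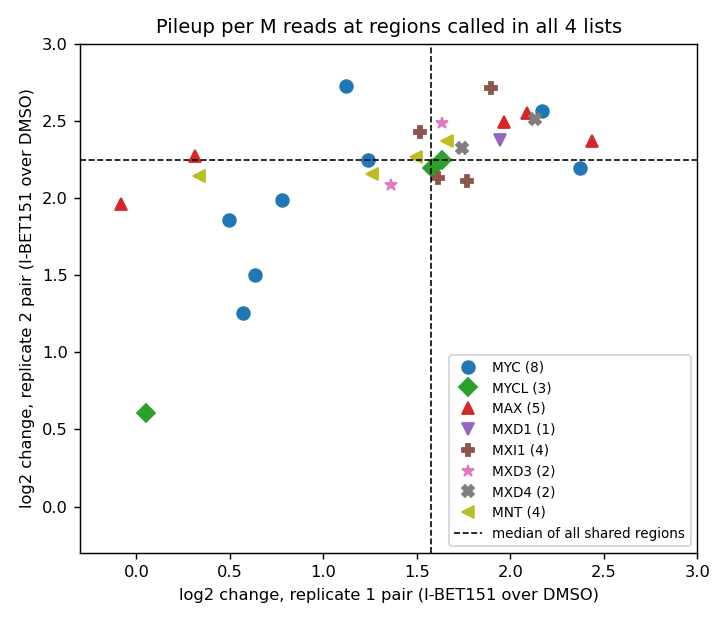
log2 change of the pileup per M reads from DMSO to I-BET151 in the replicate 1 pair (horizontal) and the replicate 2 pair (vertical) at the 29 member regions called in all 4 lists, with dashed lines at the medians of all shared regions, 1.57 and 2.25. The MYCL region at the lower left, at 0.05 and 0.61, has the lowest change in the replicate 2 pair. A MAX region, at -0.08 and 1.96, has the lowest in the replicate 1 pair.

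To set the loci side by side, the mean percentile of all regions of a locus within each list was taken as its score, with 0 for a region not called. MXD3 had the largest difference, from 20.1 and 13.3 with DMSO to 38.4 and 46.2 with I-BET151. MYCL went from 35.0 and 14.5 to 44.2 and 47.7, and MYCN from 5.36 and 2.90 to 12.5 and 17.5. The I-BET151 scores of these 3 were all above the DMSO scores. The same held for MNT, with 26.9 and 25.6 against 41.2 and 35.5, and for MXD4, with 84.3 and 86.6 against 96.1 and 95.3. MYC went from 18.1 and 5.96 to 15.1 and 28.4, and MXD1 and MXI1 also overlapped. MAX was the only locus with a lower mean, with 49.5 and 30.0 with DMSO and 27.3 and 42.5 with I-BET151, and its score fell by 22.2 within the replicate 1 pair but was 12.5 higher with I-BET151 within the replicate 2 pair. Under other settings some directions turned, as with equal peak numbers MYCN differed by -3.09, MNT by -12.9, MXI1 by -22.9, MXD1 by -8.43 and MYC by -4.25. Over called regions only MXD3 differed by -4.62, MXI1 by -15.4, MXD1 by -15.5 and MYC by -2.34, and at a −log10 p of at least 10 MAX differed by 17.5.

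Thus 5 of the 8 loci had higher scores in both I-BET151 libraries and 0 had lower ones, where 51.1% and 2.97% of 18865 protein-coding genes with a region within 20 kb did, and 47.4% were higher with the 500 kb window used for MYC. The share at the network genes was near that background. The count depended on the number of peaks, since with equal peak numbers in each list MYCL alone was higher and 4 loci (MAX, MXD1, MXI1 and MNT) were lower, against 25.3% of genes higher and 25.3% lower. Over called regions only, MXD4 and MNT were higher and MXI1 was lower, against 34% and 19.1% of genes. The median difference over all these genes was 10.6, and the differences of MYCN (10.9 ± 1.74 and 3.53, SD of DMSO and of I-BET151, n = 2 each), MXD4 (10.2) and MNT (12.1) were close to it. MXD3 (25.6) and MYCL (21.3) stood at the 89.1 and 81.9 percentile of genes and MAX (-4.86) at the 9.12 percentile. An exact permutation test (two-sided) gave p = 0.33 at the 5 loci without overlap, the smallest that 2 against 2 libraries allow, and p = 0.67 at the others.

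Motifs were counted within 100 bp of the summit, on both strands. The E-box CACGTG occurred in 6 of the 60 regions at the 8 loci (10%) and in 5 of the 21 called in all lists (23.8%), against 3.02% of all regions and 4.56% of all shared regions. Of the 9 TSS regions 3 held it, those of MAX, MXD3 and MXD4, where 6.33% of all regions within 1 kb of a protein-coding TSS did. The shared regions of the 8 loci were also richer in G and C, with a median of 60.2% against 55.2% of all shared regions. In the RefSeq promoters (GRCh38.p14, 250 bases before to 50 after the start), which held 11 entries for 8 of the 9 genes, the E-box lay in 2, those of MNT and MXD4, against 7.26% of 35116 promoters. None of the 93 regions of the MYC window held an E-box. There, TEAD (GGAATG) occurred in 21.5% of regions, AP-1 (TGANTCA) in 14.0% and FOXA in 9.68%, against 15.0%, 11% and 4.57% of all regions. The exact CTCF consensus lay in 1 of the 153 member regions and in 1.86% of all regions. With 1 letter off it lay in 7, which were 6 of the 60 regions at the 8 loci (10%) and 1 of the 93 in the MYC window (1.08%). Of all regions 7.35% had such a match. Among the 7 were the gained MYCN and MXI1 regions, the FNTB region called by rank and the MYCL region called lower by centred pileup. The others lay in the MYC, MAX and MNT windows and were in no called class. Of the gained regions 2 of 6 at the 8 loci and 0 of 11 in the MYC window had a match, against 13.7% of all gained regions. That looser search was chosen after the sequences had been seen.

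Genes that act with the network were given the same 20 kb window. Of its other members, MLX, the partner of MLXIP and MLXIPL, had a score difference of 28.8 and MLXIPL, a glucose-responsive factor, 17.3. MGA, which also pairs with MAX, differed by 9.82 and MLXIP by 7.75. Together these 4 genes had 39 regions, of which 6 were gained (15.4%) and 1 was lost (2.56%), and their median difference was 13.6. Over all merged regions 17% were gained and 2.37% were lost, and the gained share of each of the gene lists was below that. The 21 cofactors and turnover factors had 25 gained (13.2%) and 8 lost (4.23%) among 189 regions and a median difference of 4.93, below that of all genes. There 7 genes had higher scores in both I-BET151 libraries, among them the acetyltransferase gene KAT2A (26.2), BIN1 (23.6) and RUVBL1 (20.1), so 7 of 21 against the 51.1% of all genes. SIN3A, the scaffold of the repressor complex that MXD proteins recruit, was lower in both (40.1 and 32.8 against 28.6 and 32.1), though narrowly. Of all genes 2.97% were lower in this way. The 20 textbook MYC targets had 15 gained (14.0%) and 1 lost region among 107 and a median difference of 12.9. Of these 20 genes 12 were higher without overlap, again against 51.1% of all genes, with NOP56 (32.7), NCL (28.6) and TFRC (24.3) at the top. APEX1 was lower without overlap (-4.46), against the same 2.97% of all genes.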

How the data were processed

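ATAC-seq peak lists of 4 libraries were analysed, 2 with DMSO and 2 with I-BET151, grouped by the sample labels. The authors aligned reads to hg38 with Bowtie2 2.2.5, took out duplicates and mitochondrial reads, and ran MACS2 2.1.2 on every library by itself. Each deposited list gives a score (a display value, not used), a fold enrichment (the ratio of the summit pileup to the background around it), and the −log10 p-value and −log10 q-value. The authors' methods give a p-value threshold of 1e-05, but the lists stop at a q-value of 0.05 instead, so a −log10 p of at least 5 was an alternative. Shortest peaks, which follow the read extension, were 200, 233, 200 and 256 bp.

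The pileup in reads was solved from fold enrichment and p-value and matched within 0.001 in −log10 p for 100% of peaks of each list. Reads per library follow from the genome-wide background and the default genome size of MACS2, 2.7e+09. The spread of 2 libraries does not include the counting error of a pileup, which ran from 6 to 236 reads at the member regions named. Peaks of the autosomes, X and Y were merged, placed on GENCODE release 44 (20007 protein-coding genes) and compared with Python 3.11.15, pandas 2.3.3, scipy 1.17.1 and pysam 0.24.0. Over the 25627 regions called in all lists, normal scores of ranks and centred log2 pileup were fitted with limma 3.58.1 in R 4.3.3 (Benjamini-Hochberg over all of them, two-sided, threshold 0.05). The scripts were tested on simulated data.

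The members and the gene lists were chosen with earlier results of these data known. Named regions were those over a member's TSS, up to 5 gained and 5 lost regions per locus by the lower of both fold enrichments, and any region past the rank fit. Other regions named in the text, and SIN3A and APEX1, were chosen once their values were known. Same-numbered libraries deviated together at a correlation of -0.14, so the main fits and the permutation test did not take the numbers as pairs. Counts and differences within same-numbered libraries are given as description only. Alternatives were other thresholds, windows and overlaps, equal peak numbers, other rankings and scalings, a replicate block, and leaving out each library.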

Additional observations from a re-analysis of the deposited data

How the results depend on the processing

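At the 8 loci, gained and lost regions numbered 6 and 1, and changed to 12 and 4 with 50 kb windows, to 12 and 11 (replicate 1 pair alone), to 23 and 2 (replicate 2 pair alone), to 3 and 1 with equal peak numbers, and to 6 and 0 at a −log10 p of at least 10, where 2 of the 6 (MYCN intron 2 and MYCL intron 1) remained and 4 others came in. In the MYC window they were 11 and 1, and 1 and 0 within 100 kb, 0 and 0 within 20 kb, 19 and 24 (replicate 1 pair), 56 and 3 (replicate 2 pair), 5 and 0 at a −log10 p of at least 10 (4 of the 11 and the TSS region), and 1 and 2 with equal peak numbers. Leaving out 1 library gave 7 to 20 gained and 1 to 6 lost regions at the 8 loci and 11 to 43 and 2 to 19 in the MYC window, most gained without I-BET151 replicate 1 and most lost without DMSO replicate 2. The narrower windows hold fewer regions, and the cause of the other changes was not tested.

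By rank, 1 member region was called up and 0 down. Ranks by −log10 p gave 0 up and 0 down, where 8 and 27 of all shared regions were called, against 875 and 503 by fold enrichment. By centred pileup 0 were up and 3 down, against 28 and 0 without centring. With 1 library left out an arm held 1 library, so calls from those fits are not given. With the replicate block, limma called 1 up by rank (adjusted p = 0.014 at the FNTB region) and 2 down by centred pileup, as the PVT1 region 175.3 kb downstream of MYC was lost (adjusted p = 0.067). The locus scores of MYCN (-3.09), MNT (-12.9), MXI1 (-22.9), MXD1 (-8.43) and MYC (-4.25) turned negative with equal peak numbers and those of MXD3 (-4.62), MXI1 (-15.4), MXD1 (-15.5) and MYC (-2.34) over called regions only, while MYCL and MXD4 kept their sign under all 12 alternatives (9.69 to 44.9 and 0.063 to 33.9). A pileup of 5 reads, the smallest in the I-BET151 replicate 1 list, limits what could be called.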
